A study of Mus musculus with 40 samples.

Results

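Meig1, Spag16, Spag6l and the tektin genes Tekt1, Tekt2, Tekt3 and Tekt4 encode parts of the sperm tail or of the machinery that builds it. They are 7 of the 55492 genes in the deposited table, taken by symbol, and all 7 were present. MEIG1 is a small protein that in mouse spermatids sits on the manchette, a skirt of microtubules along which tail cargo is moved, and it also binds SPAG16. SPAG16 and SPAG6L belong to the central pair of microtubules in the axoneme, the motile core of cilia and sperm tails, and tektins are filament proteins that run inside its outer doublet microtubules. The sperm tail is built later, in spermatids, but many transcripts for spermatid proteins are known to be made during meiosis and stored.

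Transcripts were counted in 40 libraries of the modified STRT-seq method, each from 1 cell of the testis of C57BL/6J mice aged 6 to 8 weeks. Of these, 20 are named Metaphase I and 20 Pachytene. In pachytene the homologous chromosomes are fully paired, and in metaphase I the pairs line up on the spindle. Per the labels' protocols, spermatocytes were separated by size in a centrifuge and cultured with 4 µM okadaic acid, an inhibitor of the phosphatases PP1 and PP2A, for 5 h to drive them to metaphase I. The labels repeat 1 protocol for every library. The drug is therefore assigned to the Metaphase I cells by their name, and stage, drug and time in culture cannot be told apart. Whether the Pachytene cells spent time in culture is not stated in the labels. The labels name no animal or culture. Each group is therefore 1 sample, differences are described and not tested, and the 95% intervals of sums and folds cover counting error only.

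Totals per cell ran from 198117 to 1497037 counts in Metaphase I (median 540662) and from 165048 to 2325564 in Pachytene (median 730979). Spermatocyte markers such as Sycp3, Ldhc and Piwil1 were found in both groups, and the 15 pachytene and diplotene markers together had medians of 23125 CPM (counts per 1000000 counts of the cell) in Metaphase I and 22390 in Pachytene. X-linked genes, silenced in pachytene, held over 0.3% of counts in 8 libraries and at most 0.121% in the other 32. In 7 of the 8, which are Metaphase I replicates 3, 7 and 17 and Pachytene replicates 2, 3, 7 and 19, the 15 round spermatid markers summed to between 3192 and 8288 CPM, against 198 to 1091 CPM in the 32. The 14 elongating spermatid markers summed to 1345 to 6268 CPM in these 7 and 3.46 to 1242 in the 32, and every marker of both lists had counts in the 7 and in the 32. The last of the 8, Metaphase I replicate 19, had 17790.5 CPM of Sertoli markers, which reached 279.6 CPM at most in the 32. It also had 5973 CPM of immediate early and stress genes, against at most 119 CPM in the 32. Leydig markers had 162 CPM in it, and peritubular, endothelial and blood markers 83.8 CPM, against at most 47.6 and 28.2 CPM. Results are given with and without these 8 libraries, a split made from the data and named by no label. Within the 32, Metaphase I replicate 18 stands apart. Its 15 pachytene and diplotene markers summed to 10094 CPM, against 16420 to 26443 CPM in the other 31 cells, and its markers of preleptotene to zygotene, the stages before pachytene, to 5699.9 CPM, against 244 to 1733 CPM. The 7 genes summed to 3121 CPM in it and to 5853 to 9806 CPM in the other 31. A list of central pair genes went the other way, with 4358 CPM against 910 to 1862 CPM. Its Sertoli markers (279.6 CPM), Leydig markers (47.6 CPM) and immediate early and stress genes (119 CPM) were also above the other 31. Those had at most 196.6, 15.2 and 61.7 CPM. Values without Metaphase I replicate 18, chosen after the data were seen, are given as over 31 cells.

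The genes lie apart in the genome. On GRCm38, Meig1 is at chr2:3409043-3422648, Spag16 at chr1:69826970-70725132, Spag6l at chr16:16753016-16829456, Tekt1 at chr11:72344722-72362442, Tekt2 at chr4:126322121-126325688, Tekt3 at chr11:63061654-63094964 and Tekt4 at chr17:25454615-25476602. These spans are the same in GENCODE M21 for all 7. The 4 tektin genes share no 50-base stretch of transcript. Spag6l and its related copy Spag6 on chromosome 2 share 18 of the 4600 such stretches of Spag6l transcripts (0.391%) and no stretch of 100 bases.

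Promoter sequence is shown for the very abundant Meig1, for Tekt2 and Tekt4, whose sums differed most between the groups, and for Tekt1, the most abundant tektin per kilobase. Each line gives the 250 bases before a RefSeq transcript start (GRCm38.p6), 5′ to 3′ on the strand of the gene. Capitals mark GTTGCC or GTTGCT, read on either strand, the half-site bound by RFX factors, which are regulators of ciliary genes. The matches do not overlap each other. The windows are chr2:3422649-3422898 on the minus strand for Meig1, chr11:72361883-72362132 on the minus strand for Tekt1, chr4:126325689-126325938 on the minus strand for Tekt2 and chr17:25471340-25471589 on the plus strand for Tekt4.
Meig1: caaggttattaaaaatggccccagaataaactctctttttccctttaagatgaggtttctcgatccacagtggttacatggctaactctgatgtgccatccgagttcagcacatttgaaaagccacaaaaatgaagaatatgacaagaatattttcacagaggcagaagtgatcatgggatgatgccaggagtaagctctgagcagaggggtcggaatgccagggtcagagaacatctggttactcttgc
Tekt1: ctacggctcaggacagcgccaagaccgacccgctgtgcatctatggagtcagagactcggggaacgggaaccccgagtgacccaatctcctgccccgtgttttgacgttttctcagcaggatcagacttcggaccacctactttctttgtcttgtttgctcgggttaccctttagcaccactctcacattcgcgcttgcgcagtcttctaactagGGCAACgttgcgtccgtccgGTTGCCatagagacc
Tekt2: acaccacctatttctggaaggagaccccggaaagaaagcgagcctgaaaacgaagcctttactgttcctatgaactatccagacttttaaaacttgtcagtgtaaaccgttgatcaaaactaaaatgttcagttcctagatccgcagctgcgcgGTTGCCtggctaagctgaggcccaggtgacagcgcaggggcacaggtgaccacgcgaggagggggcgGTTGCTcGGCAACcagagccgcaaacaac
Tekt4: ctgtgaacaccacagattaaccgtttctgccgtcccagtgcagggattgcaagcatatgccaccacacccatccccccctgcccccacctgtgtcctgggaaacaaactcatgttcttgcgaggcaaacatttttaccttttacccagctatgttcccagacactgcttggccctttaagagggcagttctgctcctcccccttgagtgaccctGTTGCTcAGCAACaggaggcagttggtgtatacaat

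The Tekt2 window shown holds 3 matches and those of Tekt1 and Tekt4 hold 2 each. Which start these cells use was not tested. The match nearest to the start lies 9 bases before it in Tekt1, 16 in Tekt2 and 23 in Tekt4. Over all RefSeq starts of the 7 genes, 7 of 12 windows (58.3%) held a match, in 6 of the 7 genes. The Tekt2 windows chr4:126325689-126325938 and chr4:126325647-126325896 overlap and hold the same 3 matches, so these sites are counted more than once. Meig1 was the exception among the genes, with none in its 3 windows. The Tekt1 window chr11:72361297-72361546 and the Tekt2 window chr4:126325436-126325685 also held no match. Of all 32851 promoter windows in RefSeq's table, 21.0% held one, and of its 27025 genes 23.6% had one in at least 1 window. The 7 genes have more windows per gene than all genes, so the shares by gene are not fully alike. A match is a description of the letters and says nothing of whether a factor binds.

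Meig1 was by far the most abundant of the 7 and one of the most abundant transcripts of these cells. It had 2097, 4879 and 6346 CPM in the lowest, median and highest Metaphase I cell, against 3526, 5982 and 8105 CPM in Pachytene. The groups overlap over most of their range, and the lowest cell is Metaphase I replicate 19. By rank within a cell, Meig1 stood between 4th and 20th of all genes in Metaphase I (median 6) and between 3rd and 8th in Pachytene (median 4). It was among the 5 highest genes in 9 of 20 Metaphase I cells and 17 of 20 Pachytene cells. Summed over cells there were 68853 counts in Metaphase I and 102279 in Pachytene, or 5022 and 5790.5 CPM, which is 1.15-fold lower in Metaphase I (1.14 to 1.16), a log2 ratio of -0.21. The interval is narrow because the counts are many, and it does not include the 3.86-fold range over the 40 cells. Without the 8 libraries the log2 ratio was -0.23.

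Spag16 and Spag6l, for central pair proteins, were close to equal in the groups. Spag16 had 136, 327 and 448 CPM in the lowest, median and highest Metaphase I cell and 83.0, 292 and 666 CPM in Pachytene cells, so that the highest and the lowest of the 40 cells are both Pachytene. Its summed ratio was 1.11-fold higher in Metaphase I (1.06 to 1.16), with a log2 ratio of 0.15, and 0.10 without the 8 libraries. Spag6l had 232, 687 and 1209 CPM in Metaphase I and 261, 722 and 957 CPM in Pachytene, and its groups overlap over almost the whole range. The summed ratio of Spag6l was 1.03-fold (0.998 to 1.06) over all cells. It changed sign without the 8 libraries, with log2 ratios of 0.04 with them and -0.06 without. Metaphase I replicate 18 was its lowest cell, and the log2 ratio over the 31 cells was -0.03.

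The tektins were all lower in the Metaphase I sum, Tekt2 and Tekt4 most. Tekt1 had 173, 548 and 874 CPM in the lowest, median and highest Metaphase I cell and 324, 559 and 964 CPM in Pachytene cells, and its sum was 1.18-fold lower (1.14 to 1.22). Tekt3 had 44.2, 575 and 819 CPM in Metaphase I and 96.9, 479.6 and 880.2 CPM in Pachytene. Its sum was 1.13-fold lower in Metaphase I (1.09 to 1.17), although its median cell was higher there, a log2 ratio of -0.18 for the sums and of 0.26 for the medians. Both genes overlap between the groups over most of their range.

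Tekt2, needed in mice for normal sperm tail structure and motility, had 23.5, 134 and 889 CPM in the lowest, median and highest Metaphase I cell. In Pachytene it had 80.3, 179 and 945 CPM. Its sums were 188 and 297 CPM, 1.58-fold lower in Metaphase I (1.51 to 1.66) with a log2 ratio of -0.66. Tekt4, whose loss in mice impairs the beat of the sperm tail, had 35.7, 224 and 945 CPM in Metaphase I and 10.8, 326 and 872 CPM in Pachytene. Its sums were 259 and 381 CPM, 1.47-fold lower (1.42 to 1.54) with a log2 ratio of -0.56. The groups overlap for both genes, and a few libraries weighed heavily in the sums. Metaphase I replicate 3 held 32.1% of the Tekt2 counts and 24.8% of the Tekt4 counts of its group, and Pachytene replicate 7 held 25.8% and 28.7% of its own. The log2 ratio was -1.11 for Tekt2 and -0.87 for Tekt4 without Metaphase I replicate 3. Leaving out Pachytene replicate 7 gave -0.43 for Tekt2 and -0.27 for Tekt4. Without the 8 libraries Tekt2 was 1.44-fold lower in Metaphase I, at 121 against 175 CPM, and Tekt4 was 1.36-fold lower, at 185 against 252 CPM.

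**Figure D1:**
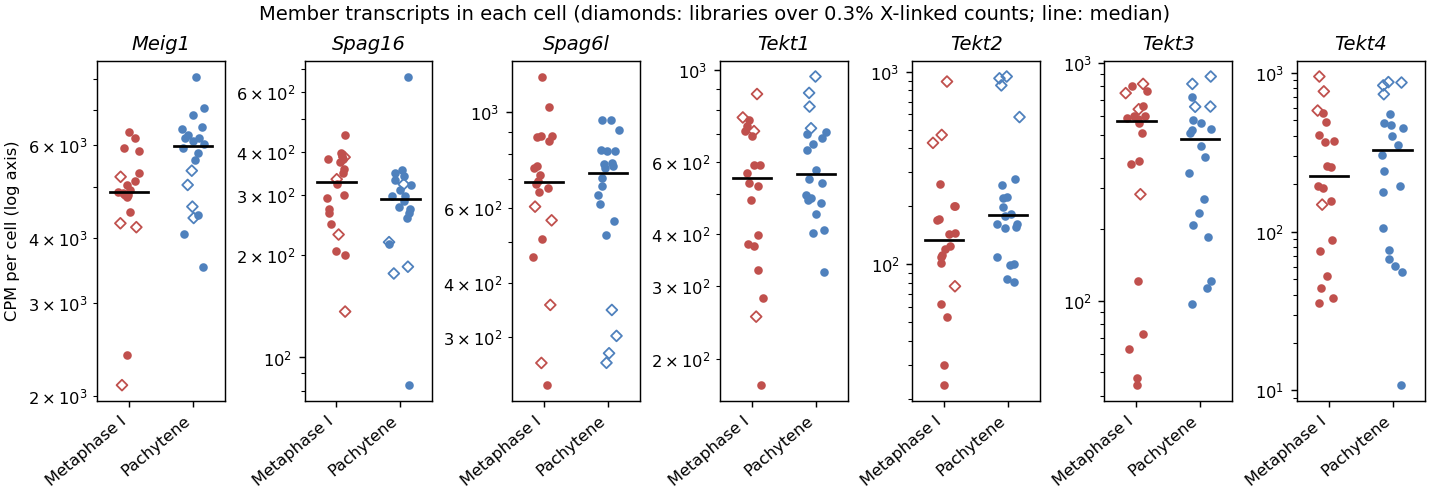
CPM of the 7 genes in each of the 20 Metaphase I cells (left in each panel) and 20 Pachytene cells, on a log axis that differs between panels; open diamonds are the 8 libraries with over 0.3% X-linked counts and lines are medians. The groups overlap in every panel, and the diamonds lie at the top of the Tekt2 and Tekt4 panels except for Metaphase I replicate 19, with 76.7 and 148 CPM.

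None of the 7 genes passed a 2-fold difference between the group sums, with 0 of 7 higher in Metaphase I and 0 of 7 lower. Among the 16174 genes with at least 20 summed counts, 8.49% were over 2-fold higher and 9.81% lower. The median log2 ratio was -0.21 over the 7 genes and 0.00 over all genes tested, whose quartiles were -0.40 and 0.38. The ratio was below 0 for 5 of the 7. Without the 8 libraries it was below 0 for 6 of the 7, again with 0 over 2-fold either way, where 6.32% of 13451 genes were higher and 4.13% lower. The median of the 7 was then -0.18, against 0.03 for all genes. Over the 31 cells the log2 ratios ran from -0.49 for Tekt2 to 0.11 for Spag16, with a median of -0.15 against 0.01 for all 13225 genes, and 6 of the 7 were below 0.

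**Figure D2:**
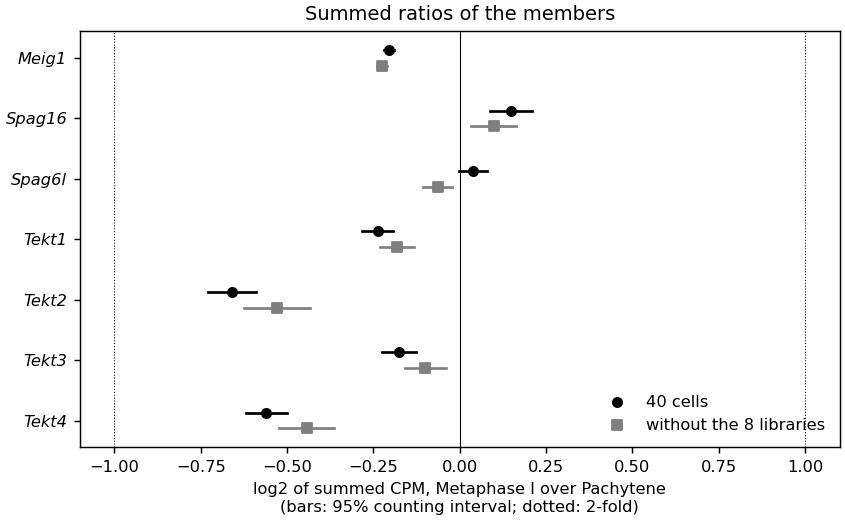
Log2 ratio of the summed CPM, Metaphase I over Pachytene, for the 7 genes over all 40 cells (circles) and without the 8 libraries with over 0.3% X-linked counts (squares); bars are 95% counting intervals and dotted lines mark 2-fold. All points lie between the dotted lines, from -0.66 for Tekt2 to 0.15 for Spag16.

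All 7 transcripts had counts in all 40 cells, and also in all 36 cells that could be thinned to 340000 counts. Per kilobase of annotated exon, the median level over 40 cells was 4695 CPM per kb for Meig1, 341 for Tekt1, 296 for Tekt3, 153 for Spag6l, 129 for Tekt4, 84.6 for Tekt2 and 44.2 for Spag16. The step from Meig1 to Tekt1 and the step from Tekt2 to Spag16 separated the quartile ranges over cells, and the ranges of the other neighbours overlap. Within Metaphase I the ranges of Tekt2 and Spag16 overlap too. The library keeps 3′ ends of transcripts, so scaling by length can undervalue long genes such as Spag16. By median CPM without this scaling the order differs. Spag6l then followed Meig1 at 696 CPM, and Spag16, at 299 CPM, stood above Tekt4 (258 CPM) and Tekt2 (161 CPM). On that scale only the step below Meig1 separated the quartile ranges. By the ratio of the highest to the lowest of 40 cells, Tekt4 varied 87.6-fold, Tekt2 40.2-fold and Tekt3 19.9-fold. The ratios of Tekt4 and Tekt2 rest on few counts in the lowest cell, while Tekt3 had 50 counts in its lowest, Metaphase I replicate 15. Tekt4 had 8 counts in Pachytene replicate 14 and Tekt2 had 8 in Metaphase I replicate 16. The next lowest Tekt4 cell had 35.7 CPM, against 10.8 CPM in the lowest. Over the 32 cells the ratios were 51.4 for Tekt4, 11.8 for Tekt2 and 18.1 for Tekt3, so that Tekt2 and Tekt3 changed places. Meig1 varied 3.39-fold over the 32 and 2.30-fold over the 31, and Tekt1 4.38-fold and 2.70-fold.

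The tektin transcripts varied together from cell to cell, whereas Meig1 did not follow them. Over the 32 cells, Spearman's correlation of log2(CPM + 1) ran from 0.40 for Tekt2 and Tekt3 to 0.81 for Tekt1 and Tekt4, with a median of 0.68 over the 6 tektin pairs. The median was 0.72 within the 16 Metaphase I cells of the 32 and 0.53 within the 16 Pachytene cells. Over all 40 cells it was 0.81, and over the 31 it was 0.65, from 0.34 for Tekt2 and Tekt3 to 0.79 for Tekt1 and Tekt4. Meig1 with the 4 tektins gave correlations between -0.38 and 0.17 over the 32 cells and between -0.40 and -0.01 over the 40, with -0.51 to 0.09 over the 31. Cells share library chemistry and CPM share a total, so these values are descriptions.

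Ift20, an intraflagellar transport gene whose protein is also found on the manchette, ran against Tekt1, Tekt3 and Tekt4 and with Meig1. It had a correlation of -0.67 with Tekt4, -0.61 with Tekt3 and -0.54 with Tekt1, and 0.62 with Meig1, over the 32 cells. With Tekt2 it was weaker there, at -0.22, and -0.50 over the 40. Over the 31 cells Ift20 had -0.76 with Tekt4, -0.31 with Tekt2 and 0.59 with Meig1. Spag6l had correlations of 0.61 with Tekt1, 0.63 with Tekt3 and 0.61 with Tekt4 over the 32 cells, but 0.08, 0.10 and 0.03 over the 40.

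**Figure D3:**
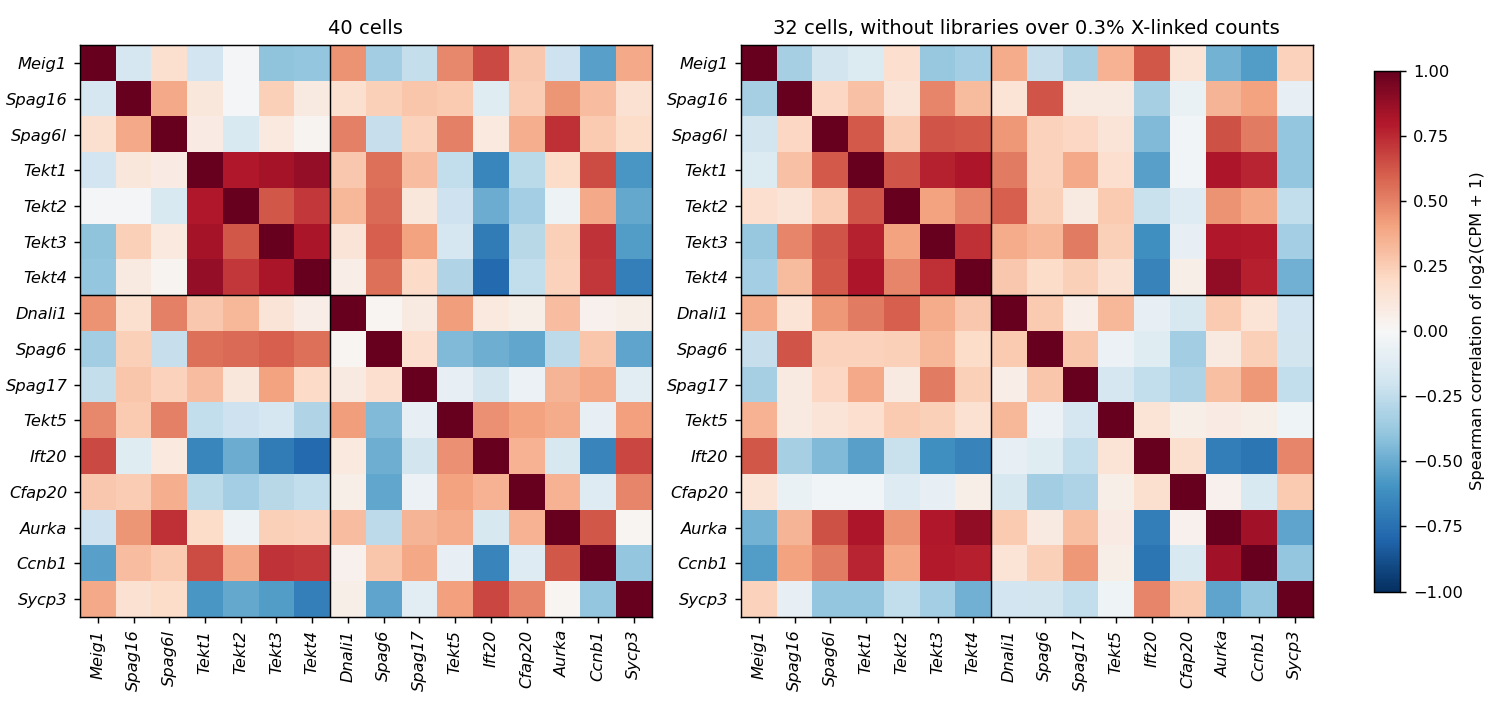
Spearman's correlation of log2(CPM + 1) between the 7 genes, 6 partners or related copies and 3 spermatocyte markers, over 40 cells (left) and over the 32 cells without the libraries with over 0.3% X-linked counts (right). The block of Tekt1, Tekt2, Tekt3 and Tekt4 is red in both panels, and the Ift20 row is blue against Tekt1, Tekt3 and Tekt4 but paler for Tekt2 in the right panel (-0.22); Aurka joins the block only in the right panel.

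The level of Aurka, the kinase that acts in the maturation and separation of spindle poles and a marker of late spermatocytes in the list used here, ordered the 32 cells much as Tekt4 did. Aurka was chosen for this with earlier results of these data known. It had 149, 511 and 904 CPM in the lowest, median and highest of the 16 Metaphase I cells and 136, 542 and 862 CPM in the 16 Pachytene cells. Cells with low Aurka were found in both groups. The lowest, Metaphase I replicate 15 with 149 CPM and Pachytene replicate 18 with 136 CPM of Aurka, had 44.2 CPM and 60.9 CPM of Tekt4. At the other end, Metaphase I replicate 16 had 904 CPM of Aurka and 490.0 CPM of Tekt4, and Pachytene replicate 12 had 862 CPM of Aurka and 549.7 CPM of Tekt4.

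Spearman's correlation between Tekt4 and Aurka was 0.89 over the 32 cells, 0.89 within the 16 Metaphase I cells and 0.92 within the 16 Pachytene cells. It was 0.89 over the 31 cells too. Pearson's r was 0.90, and 0.91 without the 2 cells farthest from the median of Aurka. Tekt4 ranked 13th by Spearman's correlation with Aurka among 4057 abundant genes, whose median was 0.00 with quartiles of -0.41 and 0.45. Tekt1 had 0.81 (rank 124), Tekt3 0.80 (rank 147), Spag6l 0.64, Tekt2 0.45, Spag16 0.34 and Meig1 -0.47 (rank 3219). Over all 40 cells the correlation of Tekt4 and Aurka was 0.23, where the 7 libraries with spermatid markers had 87.1 to 462 CPM of Aurka (median 126) beside 577 to 945 CPM of Tekt4. With Ccnb1, the M-phase cyclin B1, Tekt4 had a correlation of 0.78 over the 32 cells and 0.71 over the 40.

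**Figure D4:**
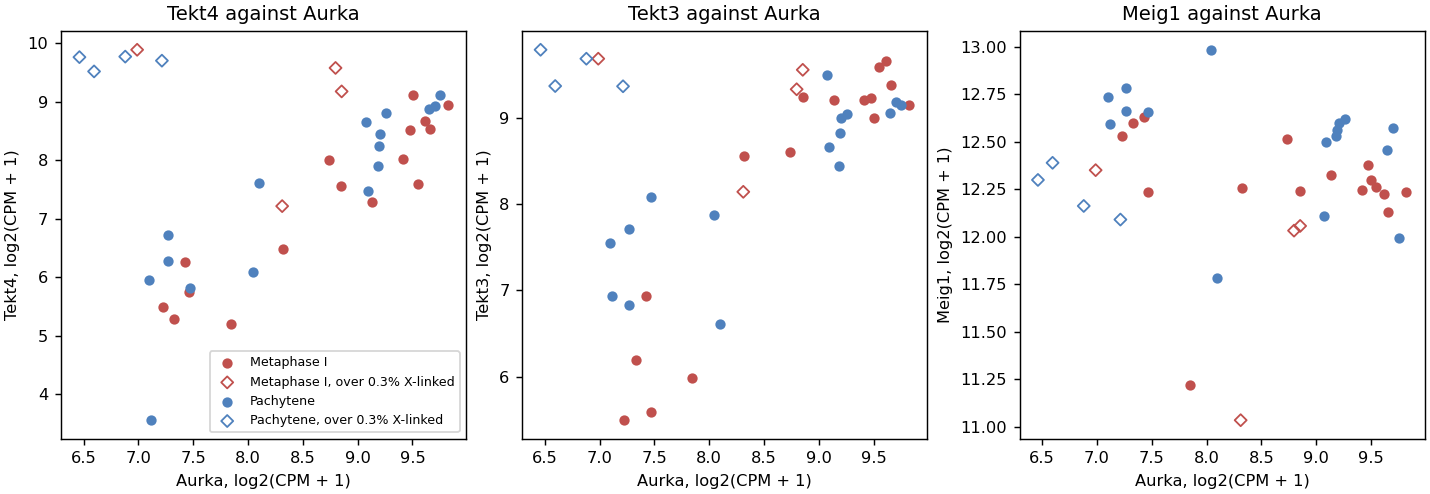
Tekt4, Tekt3 and Meig1 against Aurka in each cell, all as log2(CPM + 1), with Metaphase I in red and Pachytene in blue; open diamonds are the 8 libraries with over 0.3% X-linked counts. Filled points rise from lower left to upper right for Tekt4 (correlation 0.89) and Tekt3 (0.80) and not for Meig1 (-0.47), and red and blue points lie along the whole length in each panel.

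By Spearman's correlation over 40 cells among 4058 genes with at least 1000 summed counts and a count in at least 36 cells, the nearest gene to Meig1 was Tmsb10 (0.90, and 0.93 over the 32 cells), which encodes an actin-binding thymosin. The nearest to Tekt1 and to Tekt2 was Dnajb3, a DNAJ-family gene, with 0.90 and 0.82 over the 40 cells and 0.85 and 0.72 over the 32. Among the 5 nearest to Tekt3 was Bag5 (0.89 and 0.87), a co-chaperone of HSP70. Phyhipl was nearest to Tekt4 (0.94 and 0.89), then the kinase gene Dyrk3 (0.91 and 0.91) and Zmynd15 (0.91 and 0.91), which is needed in mice for spermatid development. Spag6l had Rrp7a (0.88 and 0.82) as its nearest gene. Spag16 had weaker neighbours, led by Tm9sf3 (0.70 and 0.57).

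The 7 libraries with spermatid markers had high Tekt2, Tekt4 and Spag6 and low Spag6l. Tekt2 had 889, 469 and 427 CPM in Metaphase I replicates 3, 7 and 17 and 945, 849.6, 581 and 924 CPM in Pachytene replicates 2, 3, 7 and 19. In the 32 other libraries it had between 23.5 and 276 CPM. Tekt4 had 945, 762 and 577 CPM in these Metaphase I libraries and 866, 872, 831 and 731 CPM in these Pachytene libraries, against 10.8 to 555 CPM in the 32. The ranges do not overlap for these 2 of the 7 genes, and none of the 7 was below the 32. Of 15667 genes, 5.1% lay above the 32 libraries without overlap and 0.402% below. Tekt1 (711 to 964 CPM against 173 to 756) and Tekt3 (641 to 880.2 CPM against 44.2 to 802) were in the upper part of the range. Meig1 lay within the range of the 32, with 4189 to 5366 CPM against 2389 to 8105.

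These libraries are also those with the spermatid marker sums given above, and the part of other cell types in the levels was not tested. Within the 32 libraries, the correlation with the summed elongating spermatid markers was 0.12 for Tekt4, 0.01 for Tekt2 and for Tekt3, -0.01 for Tekt1 and -0.21 for Meig1, and it was 0.54 for Spag6. Over all 40 cells it was 0.50 for Tekt4, 0.44 for Tekt2, 0.40 for Tekt1, 0.39 for Tekt3, -0.33 for Meig1 and 0.73 for Spag6.

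Spag6l and Spag6, the copies of the gene for a central pair protein, went opposite ways in these libraries, Spag6 high and Spag6l low. Spag6 had 789, 424 and 361 CPM in Metaphase I replicates 3, 7 and 17 and 685, 705, 539 and 550.2 CPM in Pachytene replicates 2, 3, 7 and 19. In the 32 it had 10.6 CPM at most, with 0 counts in 12 of them. Spag6l had 356, 560.3 and 603 CPM in the 3 Metaphase I libraries and 261, 302, 275 and 347 CPM in the 4 Pachytene libraries, against a median of 745 CPM in the 32 (232 to 1209). Of the counts of both genes together, Spag6 took 37.5% to 72.4% in the 7 libraries and 0% to 1.41% in the 32. The sum of both had medians of 964 and 749 CPM. Metaphase I replicate 19 had 2.84 CPM of Spag6. Over all cells Spag6 had a log2 ratio of -0.80, which was -2.41 without Metaphase I replicate 3, holder of 70.3% of the counts of its group. It was 0.09 when Pachytene replicate 7, with 53.3%, was left out.

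Tekt5, which is not among the 7 genes and is found in the sperm tail of rodents, was low in these libraries, where Tekt2 was high. Within the 32 cells its Spearman correlation with Tekt2 was 0.26. It had 26.9, 15.1 and 40.3 CPM in the 3 Metaphase I libraries and 8.71, 12.1, 6.88 and 23.9 CPM in the 4 Pachytene libraries. In the 32 it had a median of 77.7 CPM and a range of 8.92 to 132, the lowest being 3 counts in Metaphase I replicate 18. The ranges overlap. Ift20 was also low in the 7 libraries, at 35.7 to 90.6 CPM against 54.5 to 448 CPM.

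**Figure D5:**
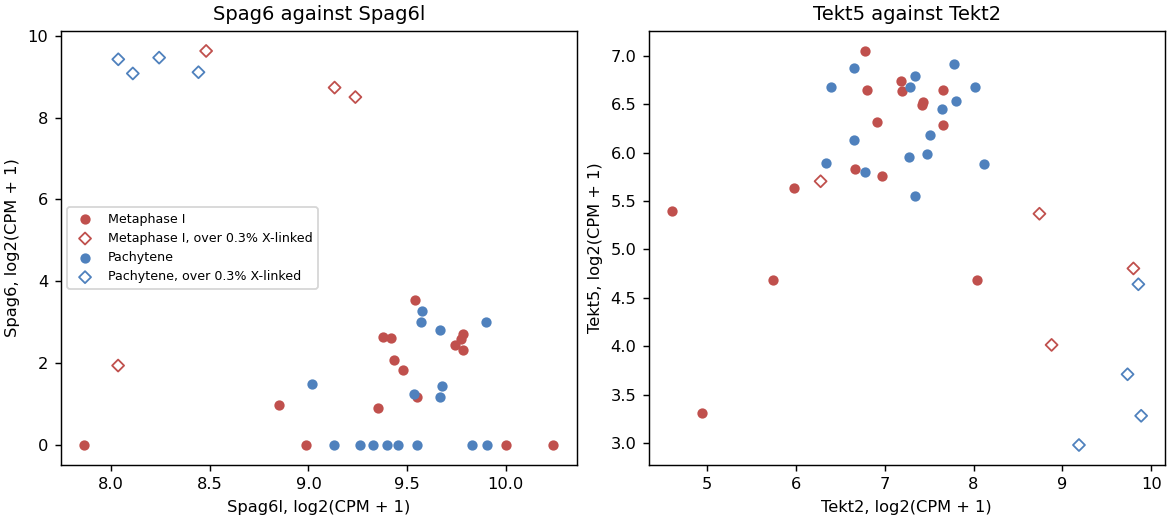
Spag6 against Spag6l (left) and Tekt5 against Tekt2 (right) in each cell, as log2(CPM + 1), with Metaphase I in red and Pachytene in blue; open diamonds are the 8 libraries with over 0.3% X-linked counts. In the left panel 7 diamonds lie above all filled points, at 361 to 789 CPM of Spag6, and in the right panel the same 7 lie at the far right, at 427 to 945 CPM of Tekt2; the remaining diamond is Metaphase I replicate 19.

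Of the partners and copies, 0 of 7 were over 2-fold higher and 0 of 7 lower in the Metaphase I sum, against 8.49% and 9.81% of all genes. Dnali1, an axonemal dynein light intermediate chain known to act with MEIG1 in mouse spermatids, was 1.27-fold lower in Metaphase I (1.22 to 1.33). It overlaps Gnl2 on the opposite strand, and the strand setting of the counting is not given. Spag17, of the central pair, was 1.11-fold higher (1.07 to 1.14), Ift20 1.20-fold higher (1.14 to 1.26) and Cfap20 1.09-fold higher (1.05 to 1.14), while Tekt5 was 1.10-fold lower (1.01 to 1.20). The median cell of Cfap20 was lower in Metaphase I, at 260 against 285 CPM. That of Ift20 was close to equal, at 145 against 140 CPM. Metaphase I replicate 13 held 18.8% of the Ift20 and 13.7% of the Cfap20 counts of its group.

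Genes of the wider tail programme were counted in 5 lists, including these partners, of which 73 genes had at least 20 summed counts. Over 2-fold higher in Metaphase I were 0 of 73, and 10 were lower, against 8.49% and 9.81% of all genes. The median of the lists was -0.10. Of 14 central pair genes 1 was lower, of 18 proteins inside the doublets 4, of 21 manchette and transport genes 1 and of 13 regulators 4. In place of 10 there were 2 when Pachytene replicate 7 was left out and 14 when Metaphase I replicate 3 was. The shares of all genes under these omissions were not counted, so whether all genes shift alike was not tested. Without the 8 libraries 1 of 69 was higher and 1 lower, against 6.32% and 4.13% of all genes. Over the 31 cells 0 of 69 were higher and 1 lower, against 4.91% and 4.87%.

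Spef2, for a central pair protein, was the one higher without the 8 libraries. Its log2 ratio was 1.01 there and 0.76 over all cells, where it was 1.70-fold higher (1.58 to 1.83). Metaphase I replicate 18, with 646 CPM, was the highest of the 32, and over the 31 cells the log2 ratio was 0.83. Its median cell had 114 CPM in Metaphase I and 79.1 CPM in Pachytene. Cfap74, another central pair gene, was 1.34-fold higher (1.25 to 1.45). Ift88, an intraflagellar transport gene needed for cilia, was 1.59-fold higher (1.49 to 1.71), with a log2 ratio of 0.67, and 0.86 without the 8 libraries. Metaphase I replicate 13 held 27.0% of the Ift88 counts of its group. The median cell had 84.3 CPM of Ift88 in Metaphase I and 67.05 CPM in Pachytene. Clip1, which binds the growing ends of microtubules, was 3.15-fold lower in Metaphase I (2.83 to 3.52), with a log2 ratio of -1.63, and -0.92 without the 8 libraries. Its median was 7.35 CPM in Metaphase I and 16.1 in Pachytene, and it had 115 to 401 CPM in the 7 libraries and 70.4 CPM at most in the 32.

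The regulators Sox5 and Rfx1 were low in the 32 libraries and high in the 7. Both were named for their large ratios between the group sums, as were the doublet inner proteins below. Pachytene replicate 7, one of the 7 libraries, held 54.0% of the Sox5 and 50.3% of the Rfx1 counts of its group. High levels in the 7 are therefore part of how these genes were picked, and no result about regulators as a set. Sox5, a transcription factor of spermatids, was 2.87-fold lower in the Metaphase I sum (2.60 to 3.18), and -0.14 on the log2 scale without the 8 libraries. It had 121 to 591 CPM in the 7 libraries and 13.9 CPM at most in the 32. Rfx1, of the family that binds the half-sites shown above, was 2.45-fold lower (2.04 to 2.95), with a log2 ratio of 0.04 without the 8 libraries. Rfx1 had 55.5 to 147 CPM in the 7 and 18.2 CPM at most in the 32. The other RFX genes of the list were not named by this rule. Taf7l, an X-linked TFIID subunit of germ cells, had 30 counts in Metaphase I and 150 in Pachytene, and a log2 ratio of 0.16 without the 8. That ratio rests on few counts, as Taf7l had a median of 0 CPM and 8.08 CPM at most in the 32. Among the doublet inner proteins, 1700007K13Rik (Pierce1) was 2.73-fold lower (2.46 to 3.03), Tex43 2.72-fold lower (2.43 to 3.04) and Efhc2 2.44-fold lower (1.82 to 3.31). Without the 8 libraries their log2 ratios were -0.44, 0.03 and -0.29. Efhc2 had a median of 0 CPM and 1.24 CPM at most in the 32, so its ratio there rests on very few counts. Cfap47, an X-linked central pair gene, had 40 counts in Metaphase I and 149 in Pachytene, and Spem1, a late spermatid gene, had 9 and 40. Spem1 was the one lower without the 8 libraries, with 4 counts in Metaphase I, 35 in Pachytene and a log2 ratio of -1.39, against -0.98 over all cells and -1.38 over the 31.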

How the data were processed

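The authors deposited raw counts per gene for 40 single-cell libraries, in the layout of featureCounts, per the file headers. Per the submitters' processing notes, which name no version, the tools were UMI-tools, STAR and featureCounts, with the build GRCm38. Neither the strand setting nor whether the counts are of reads or of molecules is given in the sources used here. If counts are reads, the intervals are too narrow. Each of the 40 value columns was matched to its library by name, and groups are the names in the labels.

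CPM used the column total of each cell. The members and lists were chosen with earlier results of these data known. Group levels are the summed counts of the 20 cells per summed total. Ratios are Metaphase I over Pachytene on the log2 scale, after adding 1 CPM to both. Folds carry exact conditional binomial intervals (95%). The minimum was 20 summed counts, and a gene was counted as higher or lower past 2-fold. Named genes were the 7 members, the 7 partners and copies, up to 3 genes per other list with the largest ratio, and the 5 genes nearest to each member, of which some are given. Of the partners 1 is counted but not reported here. Aurka, Ccnb1 and Sycp3 stand for the spermatocyte markers. Of 82 list entries 76 matched a symbol. Promoters come from a RefSeq table on GRCm38.p6. The code was tested on simulated counts. Python 3.11.15, numpy 2.4.6, pandas 2.3.3, scipy 1.17.1 and edgeR 4.0.16 (TMM factors only) were used. Alternatives were equal weight per cell, medians over cells, TMM, median-of-ratios, totals without mitochondrial, ribosomal protein and rRNA genes, pseudocounts of 0.1 and 10 CPM, minimums of 1 and 100 counts, thinning to 340000 counts (3 Metaphase I and 1 Pachytene cells left out) and omission of libraries.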

Additional observations from a re-analysis of the deposited data

How the results depend on the processing

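The number of the 7 genes over 2-fold higher was 0 under all 12 alternatives and all 40 omissions of a single cell. The number lower was 0 under the 12 alternatives and 0 to 1 over the omissions, the 1 being Tekt2 without Metaphase I replicate 3. The median log2 ratio of the 7, -0.21, stayed below 0 throughout. It was -0.16 with equal weight per cell, -0.07 for medians over cells, -0.25 with TMM, -0.22 with median-of-ratios scaling, and -0.18 with totals without mitochondrial, ribosomal protein and rRNA genes, with thinned cells and without the 8 libraries. Leaving out these 8 and Metaphase I replicate 18 as well, an alternative added after seeing the data, gave -0.15. Single omissions gave -0.29 to -0.16. Tekt3 had 0.26 for medians over cells, 0.06 with equal weight and 0.01 with thinned cells, and Spag6l was below 0 in 4 of the 12. Of the pathway genes, 10 were lower. This was 1 for medians over cells, 4 with a pseudocount of 10 CPM, 1 without the 8 libraries or these 9, and 2 to 14 over the omissions. Shares of all genes past 2-fold were counted for the 40, 32 and 31 cells only, so the other numbers have none beside them. The number higher, 0, was 1 without the 8 libraries, 0 without the 9 and 0 over the omissions. The median Spearman correlation of the tektin pairs, 0.81, was 0.68 without the 8 libraries, 0.65 without the 9, 0.81 within Metaphase I, 0.76 within Pachytene and 0.78 with thinned cells. The cause of these changes was not tested. No paired analysis was possible because each group is 1 sample and no test was made, so that a shared replicate number pairs nothing. Depth limits little in the detection of the 7 genes, which had counts in every cell. Tekt2 and Tekt4 had only 8 counts in their lowest cell. The unknown number of animals limits every comparison.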
